A study of Mus musculus with 6 samples.

Results

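The type I interferon-stimulated genes examined here are 40 genes that macrophages turn on in response to interferon-alpha and interferon-beta. The 40 symbols came from a list, were matched by symbol to the Ensembl identifiers of the count table, and were kept if they had 10 or more counts in at least 3 libraries. All 40 met this minimum and all 40 were among the 14469 genes tested, of 55421 genes counted. The question was whether Ifit1 and Rsad2, which were named with the list as genes of interest, changed together with the other genes of the response in tumor-associated macrophages (TAMs) whose myeloid cells carry a deletion of the PD-1 gene.

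The TAMs were live CD45+CD11b+F4/80+Ly6G- cells sorted from M17 tumors (the labels' name for the fibrosarcoma line MC17-51), which had been implanted under the skin and were taken on day 15. Libraries from 3 Pdcd1f/f samples, in which the PD-1 gene Pdcd1 is flanked by loxP sites and intact, were compared with 3 from Pdcd1f/fLysMCre samples, which carry the same floxed alleles and in addition Cre recombinase driven from the lysozyme M (Lyz2) locus. LysMCre acts in monocytes, macrophages and neutrophils alike, so the deletion in these mice is not confined to TAMs. The labels give no age, and they do not say whether a library is 1 mouse or a pool, so p-values measure the spread between these libraries, which may be partly technical.

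Type I interferons bind the receptor made of Ifnar1 and Ifnar2, which activates the kinases Jak1 and Tyk2. These kinases activate transcription factors, Stat2 and Irf9 among them, that bind the interferon-stimulated response element (ISRE) in the promoters of target genes. The targets include RNA sensors, inhibitors of translation and proteins that block virus entry or budding, and macrophages keep many of them at a basal level through small amounts of interferon-beta.

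The ISRE is the sequence feature that these genes are known for, and it was looked for in the RefSeq promoter windows of the mouse build GRCm38.p6, which run from 250 bases before to 50 bases after each start site. The core searched was GAAANNGAAA, on either strand. A window was given for 30 of the 40 genes, and 14 of those 30 (46.7%) held at least 1 core, against 1079 of 27025 genes (3.99%) with a window of the same length. The windows of Ifit1 and Rsad2 are shown whole because these genes define the question. Bases are written 5′ to 3′ along the gene's own strand, and capitals mark the core, which reads TTTCNNTTTC when it lies on the other strand.
Ifit1, chr19:34640639-34640938, + strand: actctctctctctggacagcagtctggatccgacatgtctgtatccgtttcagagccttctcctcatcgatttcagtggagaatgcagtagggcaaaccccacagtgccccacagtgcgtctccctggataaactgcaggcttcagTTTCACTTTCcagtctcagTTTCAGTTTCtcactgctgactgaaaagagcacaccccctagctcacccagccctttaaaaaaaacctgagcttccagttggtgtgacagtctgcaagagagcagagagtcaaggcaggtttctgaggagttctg
Rsad2, chr12:26456403-26456702, - strand: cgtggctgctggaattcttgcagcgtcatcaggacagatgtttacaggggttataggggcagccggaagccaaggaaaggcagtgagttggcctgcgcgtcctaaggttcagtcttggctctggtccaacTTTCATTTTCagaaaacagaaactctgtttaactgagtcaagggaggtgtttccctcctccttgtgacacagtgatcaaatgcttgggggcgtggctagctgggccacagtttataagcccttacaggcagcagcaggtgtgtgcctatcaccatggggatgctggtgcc

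The Ifit1 window held 2 cores, which began 104 and 85 bases before the start site, and that of Rsad2 held 1 core at 120 bases. The stretches around the core in Isg15, Oas1a, Oas1g and Bst2 are shown for comparison, because these genes carry a tight cluster of cores in the gene's own direction. In these stretches capitals mark overlapping cores, 3 in Isg15 and 2 in each of the others.
Isg15, chr4:156200865-156200906, - strand: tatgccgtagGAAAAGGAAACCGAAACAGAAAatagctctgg
Oas1a, chr5:120907520-120907555, - strand: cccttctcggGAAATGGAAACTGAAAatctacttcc
Oas1g, chr5:120887606-120887641, - strand: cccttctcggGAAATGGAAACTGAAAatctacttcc
Bst2, chr8:71537577-71537612, - strand: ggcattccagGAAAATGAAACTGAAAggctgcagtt

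The stretches of Oas1a and Oas1g, which are neighbouring copies of one gene, are the same. A core in the window did not separate the genes by their change between genotypes. Of the 14 genes with a core, 9 had a log2 fold change above 0, as had 9 of the 16 with a window and no core, and the median log2 fold change was 0.07 in both.

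In all 6 libraries the interferon-stimulated genes were well expressed. Levels between genes are given as normalized counts per kb of exon, averaged over the 6 libraries. Ifitm3, a membrane protein that blocks virus entry, had the highest level, 21422.9 per kb. Ifi27l2a followed with 8935.3, the secreted glycoprotein gene Lgals3bp with 7380.2, the virus-tethering gene Bst2 with 6665.1 and the ubiquitin-like modifier Isg15 with 5035.3. Rsad2 came at place 7 of this order and Ifit1 at place 13, with 3004.5 and 1411.2 per kb. The lowest of the 40 was Ifi44 at 105.8 per kb.

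**Figure D1:**
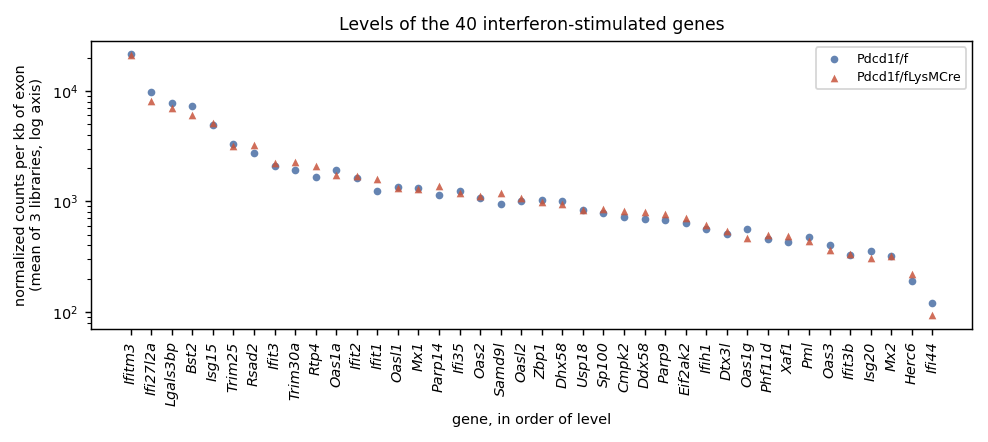
Normalized counts per kb of exon (log axis) for each of the 40 genes in order of level, as the mean of 3 Pdcd1f/f libraries (circles) and of 3 Pdcd1f/fLysMCre libraries (triangles). The symbols of the 2 genotypes lie close together across the whole range, from 21422.9 per kb for Ifitm3 to 105.8 per kb for Ifi44 over all libraries.

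Between genotypes, 2 of the 40 genes were higher in Pdcd1f/fLysMCre TAMs (Ifit1 and Rtp4), 1 was lower (Ifi27l2a) and 37 did not pass an adjusted p of 0.05 in edgeR's quasi-likelihood test. That is 7.5% of the 40, beside 5.43% of all genes tested, of which 350 (2.42%) were higher and 436 (3.01%) lower. Fold changes were small throughout, from -0.36 to 0.35 on the log2 scale. Their median was 0.05, beside -0.003 over all genes, and 22 of the 40 (55%) were above 0, beside 49.6% of all genes. At an unadjusted p under 0.05, 10 were higher and 4 lower, beside 24.2% of all genes (12.3% higher and 11.9% lower). DESeq2 called 7 higher and 3 lower, beside 11.1% of all genes (5.23% higher and 5.82% lower). In bulk RNA such as this, fewer cells of a type and less RNA per cell cannot be told apart.

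Ifit1 encodes a protein that binds the 5′ end of viral RNA and blocks its translation. It lies on chromosome 19 at 34640871 to 34650009 (GRCm38, + strand) and is identified as ENSMUSG00000034459. It had 3302, 3333 and 3242 normalized counts in controls (Pdcd1f/f) and 4048, 4570 and 3993 with Pdcd1f/fLysMCre. Every Pdcd1f/fLysMCre library was above every Pdcd1f/f library, and the controls lay close together. The mean rose from 3292 ± 46.3 to 4204 ± 319 (SD, n = 3 each). This was a log2 fold change of 0.35 (SE 0.07), 1.28-fold, with an adjusted p of 0.0167 in edgeR. The call was lost without Pdcd1f/f replicate 2 or 3 or Pdcd1f/fLysMCre replicate 1 or 2, with log2 fold changes of 0.29 to 0.38 over the 6 fits that left out 1 library.

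Rsad2 encodes viperin, an enzyme that makes a chain-terminating nucleotide. It lies on chromosome 12 at 26442746 to 26456452 (- strand, ENSMUSG00000020641). It had 12366, 11674 and 11925 normalized counts in controls and 13873, 15004 and 13304 in Pdcd1f/fLysMCre libraries. The genotypes did not overlap, but the difference did not pass the threshold. The means were 11988 ± 350 and 14060 ± 865 (SD, n = 3 each), and the log2 fold change was 0.23 (SE 0.06, adjusted p = 0.0649 in edgeR). The same difference passed under DESeq2 (adjusted p = 0.0225), with a filter that kept every gene with a count (adjusted p = 0.0286) and with offsets for GC content and length, where the log2 fold change was 0.17 (adjusted p = 0.00665). It also passed without Pdcd1f/f replicate 1 (log2 fold change 0.25, adjusted p = 0.0201 in edgeR), and over all settings the adjusted p was 0.00415 to 0.266.

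Rtp4, which encodes a chaperone of membrane receptors, lies on chromosome 16 at 23520291 to 23614222 (+ strand, ENSMUSG00000033355). It had 3665, 3420 and 3473 normalized counts in Pdcd1f/f and 4288, 4741 and 4309 in Pdcd1f/fLysMCre libraries. Its lowest Pdcd1f/fLysMCre library was above its highest control. The log2 fold change was 0.34 (SE 0.07, adjusted p = 0.0163 in edgeR), a rise to 1.27-fold. The same 4 libraries as for Ifit1 each ended this call when left out (adjusted p of 0.0559 to 0.114 in edgeR). The annotated span of Rtp4 overlaps Masp1 on the other strand and Gm45338 on its own strand, and 14% of the 42-base stretches of its longest transcript also occur in Gm45338.

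Ifi27l2a, a small interferon-induced membrane protein gene on chromosome 12 at 103442167 to 103443680 (- strand, ENSMUSG00000079017), went the other way. It had 4575, 4649 and 4374 normalized counts in Pdcd1f/f and 3806, 3878 and 3541 in Pdcd1f/fLysMCre libraries. All Pdcd1f/fLysMCre libraries were below all controls. The log2 fold change was -0.27 (SE 0.06, adjusted p = 0.0349 in edgeR), or 0.827 of the control level. With 1 library left out it was called in 1 of 6 fits, the one without Pdcd1f/f replicate 1, and its log2 fold change was -0.30 to -0.24. For each of Ifit1, Rsad2, Rtp4 and Ifi27l2a the two-sided exact permutation test of 3 against 3 values gave p = 0.1, the smallest p that this design allows.

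**Figure D2:**
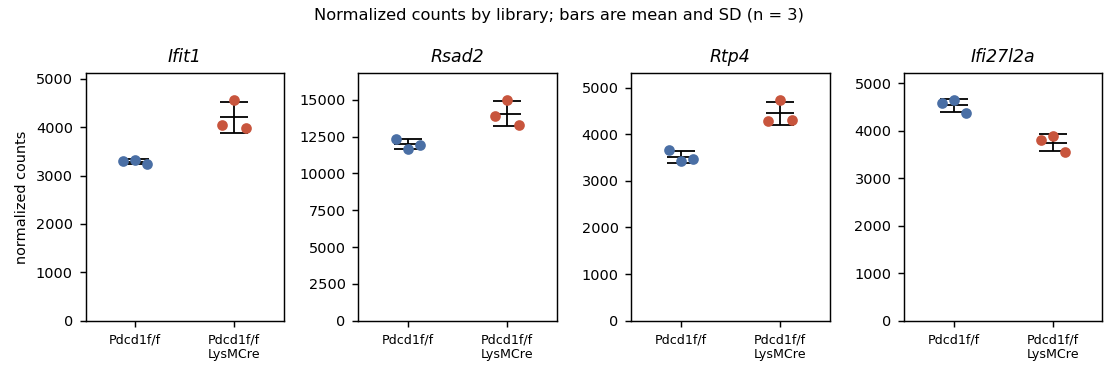
Normalized counts of Ifit1, Rsad2, Rtp4 and Ifi27l2a in each library (points; y axes start at 0), with the mean and SD of 3 libraries per genotype (black bars). In each gene the 2 genotypes do not overlap, with Ifit1, Rsad2 and Rtp4 above and Ifi27l2a below the controls.

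The other IFIT genes lie beside Ifit1 on chromosome 19 and encode related RNA-binding proteins. None of the other 3 passed the test. Ifit3, the most abundant of the family per kb, had 3556, 3618 and 3700 normalized counts in Pdcd1f/f and 3617, 4149 and 3861 in Pdcd1f/fLysMCre libraries. Its ranges overlapped, and its log2 fold change was 0.10 (SE 0.07, adjusted p = 0.404 in edgeR). Ifit2 had a log2 fold change of 0.06 (SE 0.07) and Ifit3b of 0.02 (SE 0.08). Ifit3 and Ifit3b are near-copies, and 55% of the 42-base stretches of the Ifit3 transcript occur in another gene, so counts could be split between them. For Ifit1 this share was 8.1%, held in common with Ifit1bl1 and Ifit1bl2, and for Rsad2 no stretch was shared.

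The 6 OAS genes make or resemble the enzymes that produce 2′-5′-linked oligoadenylate, the activator of RNase L. No OAS gene was called in either direction, 2 had log2 fold changes above 0, and the median was -0.07. Oas1a, the most abundant, had 3163, 3887 and 3736 normalized counts in Pdcd1f/f and 3323, 2930 and 3531 in Pdcd1f/fLysMCre libraries. These overlapped (log2 fold change -0.14, SE 0.10, adjusted p = 0.402 in edgeR). Its copy Oas1g had the largest difference of the family, with 1314, 1298 and 1309 against 1044, 1120 and 1141 normalized counts. The Oas1g libraries did not overlap and were low in Pdcd1f/fLysMCre, but the call was not made (log2 fold change -0.25, SE 0.07, adjusted p = 0.0749 in edgeR). The 2 copies share 62.1% and 59% of their 42-base stretches with other genes, so their separate values are uncertain.

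The ISG15 system attaches Isg15 to proteins, Usp18 removes it, and Herc6 is the mouse ligase. Of these and the ligases Trim25, Trim30a and Dtx3l, none of 6 passed the test. Isg15 had 3220, 3887 and 4145 normalized counts in Pdcd1f/f and 3852, 3487 and 4250 in Pdcd1f/fLysMCre libraries. Its genotypes overlapped almost fully (log2 fold change 0.04, SE 0.10, adjusted p = 0.826 in edgeR), as did those of Usp18 (0.00, SE 0.08). Trim30a, which restrains signaling by Toll-like receptors, had all Pdcd1f/fLysMCre libraries above the controls, at 9476, 9908 and 8628 against 8197, 7700 and 7796 normalized counts (log2 fold change 0.24, SE 0.07, adjusted p = 0.0643 in edgeR).

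Parp9 and Parp14, ADP-ribosyltransferase family members of which Parp9 works as a complex with Dtx3l, lie near one another on chromosome 16. Neither passed the test. Parp14, the more abundant, had 11774, 10440 and 9995 normalized counts in Pdcd1f/f and 13630, 12511 and 12125 in Pdcd1f/fLysMCre libraries. No Pdcd1f/fLysMCre library fell within the control range (log2 fold change 0.25, SE 0.08, adjusted p = 0.0819 in edgeR). The same held for Parp9, with a log2 fold change of 0.17 (SE 0.06, adjusted p = 0.133 in edgeR). The spans of Parp9 and Dtx3l overlap on opposite strands, and whether reads were counted by strand is not stated.

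Of the 5 sensors and effectors of foreign RNA and DNA, none passed the test. Zbp1, a sensor of Z-form nucleic acid and the most abundant of them per kb, had 3493, 3636 and 3871 normalized counts in Pdcd1f/f and 3589, 3230 and 3629 in Pdcd1f/fLysMCre libraries. Its genotypes overlapped (log2 fold change -0.07, SE 0.07, adjusted p = 0.571 in edgeR). Ddx58, which encodes RIG-I, a sensor of viral RNA ends, had 4876, 4986 and 4780 against 5498, 5799 and 5674 normalized counts. The Ddx58 libraries were all higher in Pdcd1f/fLysMCre (log2 fold change 0.21, SE 0.06, adjusted p = 0.0626 in edgeR). Ifih1 (the sensor MDA5), Dhx58 (LGP2) and Eif2ak2 (the translation-blocking kinase PKR) had log2 fold changes of 0.10, -0.09 and 0.15.

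Among the 8 restriction factors, a group that includes Rsad2, none passed the test. Ifitm3 had 13350, 15158 and 15624 normalized counts in Pdcd1f/f and 14414, 13686 and 14917 in Pdcd1f/fLysMCre libraries. The Pdcd1f/fLysMCre range lay within that of the controls (log2 fold change -0.03, SE 0.07, adjusted p = 0.811 in edgeR). Cmpk2, a nucleotide kinase gene next to Rsad2, had 2934, 2972 and 3169 against 3201, 3722 and 3270 normalized counts. It was higher in every Pdcd1f/fLysMCre library, with a log2 fold change of 0.17 (SE 0.08, adjusted p = 0.197 in edgeR). The dynamin-like GTPase genes Mx1 and Mx2 had log2 fold changes of -0.03 (SE 0.07) and 0.00 (SE 0.08). Samd9l, a translation inhibitor, and Bst2 stood at the ends of the group with 0.34 (SE 0.11, adjusted p = 0.0945) and -0.29 (SE 0.11, adjusted p = 0.138) in edgeR, and the genotypes overlapped in both.

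The nuclear genes Sp100 and Pml, which build the PML nuclear bodies, and Phf11d did not pass either. Sp100, the most abundant of them, had 6406, 5640 and 5727 normalized counts in Pdcd1f/f and 6207, 6857 and 6167 in Pdcd1f/fLysMCre libraries. The ranges overlapped (log2 fold change 0.12, SE 0.07, adjusted p = 0.355 in edgeR). Sp100 lies 8.33 Mb from Pdcd1 on chromosome 1. Of the remaining genes, Xaf1, which favours apoptosis, had a log2 fold change of 0.17 (SE 0.07) and Lgals3bp of -0.16 (SE 0.10), with Ifi35 at -0.06 (SE 0.09). Ifi44 had 840, 644 and 701 against 568, 620 and 517 normalized counts. All of its Pdcd1f/fLysMCre libraries were below the controls (log2 fold change -0.36, SE 0.12, adjusted p = 0.0956 in edgeR).

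Over the whole list, every Pdcd1f/fLysMCre library was above every control for 10 genes and below for 4, and the genotypes overlapped for 26. Over all genes the share without overlap was 27.2%, with 14.1% above and 13.1% below. The per-library median of the 40 log2 ratios to the control mean was 0.02, -0.01 and -0.02 for controls and 0.03, 0.06 and 0.05 for Pdcd1f/fLysMCre. The medians of the Pdcd1f/fLysMCre libraries were the higher ones, by hundredths of a log2 unit. Counts were simulated gene by gene from these libraries, without shifts shared by many genes, and the changed genes were picked at random. In them edgeR called 12 of 51 genes changed by 0.3 on the log2 scale and 28 of 51 changed by 0.5. The share for the 40 genes of the list may differ.

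**Figure D3:**
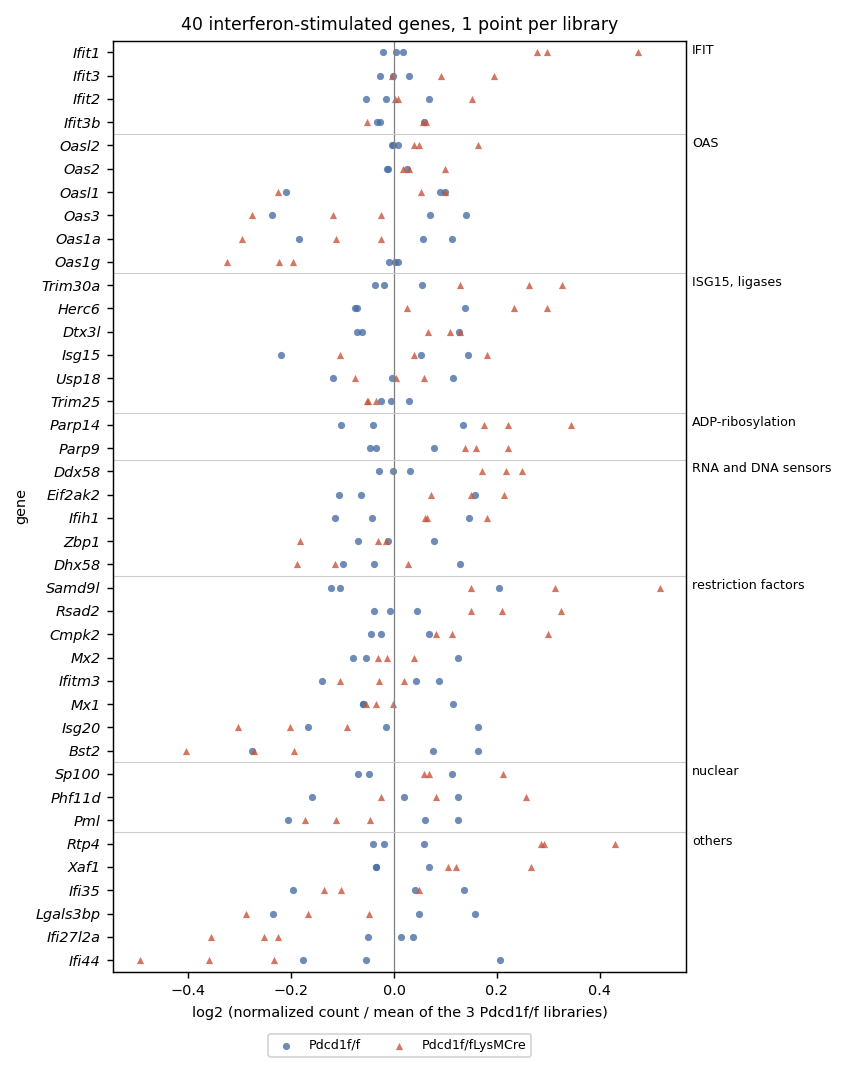
Log2 ratio of each library's normalized count to the mean of the 3 Pdcd1f/f libraries, for the 40 genes in their role groups (circles, Pdcd1f/f; triangles, Pdcd1f/fLysMCre). The triangles lie right of all circles for 10 genes, left of all circles for 4 and among the circles for 26.

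The genes differed from one another in a pattern that followed base composition. Of the 23 genes with a GC content under 50% in their longest transcript, 20 had log2 fold changes above 0 (median 0.15). Of the 17 with 50% or more, 2 did (median -0.09). Spearman's rho between GC content and log2 fold change was -0.69 over the 40 genes, which share the same 6 libraries. Over all genes the direction was the same, with 64.8% above 0 under a GC content of 50%, 31.6% at or over it, and a rho of -0.36 over 14454 genes. With offsets per library for GC content and length, rho was -0.42 over the 40 genes and -0.05 over all genes, and 19 of the 23 and 8 of the 17 were above 0. Ifi44, with a GC content of 40.4% and a log2 fold change of -0.36, stood apart from the other AT-rich genes of the list.

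**Figure D4:**
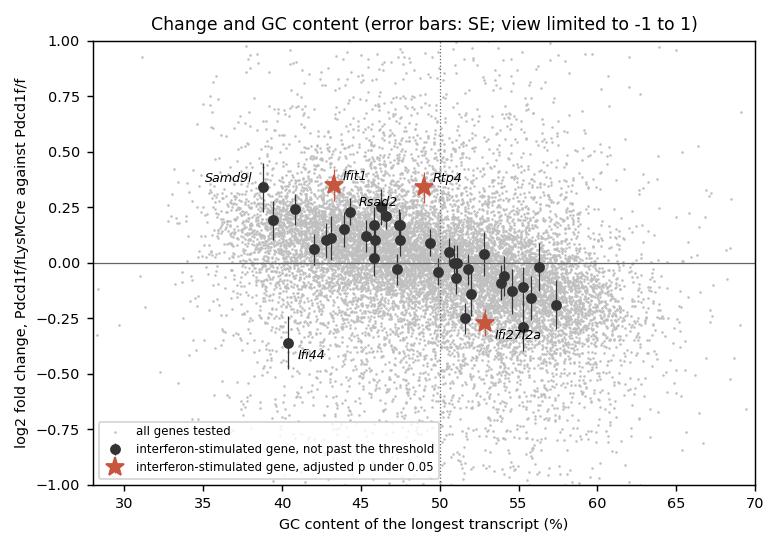
Log2 fold change against the GC content of the longest transcript, for all genes tested (grey) and the 40 interferon-stimulated genes (black circles and red stars, the latter with an adjusted p under 0.05; bars are SE). Most genes of the list left of the dotted line at 50% lie above 0 (20 of 23) and most of those right of it lie below (15 of 17).

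Single libraries moved with GC content too. The deviation of a library from its genotype's mean correlated with GC content over all genes with a rho of -0.58 in Pdcd1f/f replicate 1 and -0.49 in Pdcd1f/fLysMCre replicate 2, and of 0.12 to 0.51 in the other 4. Without these 2 libraries, a choice made after the data were seen, 10 genes of the list were higher and 8 lower. Over all genes, 26.2% were called in that fit (12.5% higher and 13.6% lower). With offsets per library for GC content and length, 8 were higher and 3 lower, beside 19% of all genes (11.2% higher and 7.76% lower). Those higher were Ifit1, Rsad2, Rtp4, Ddx58, Trim30a, Parp9, Parp14 and Samd9l, and those lower were Oas1g, Ifi44 and Ifi27l2a. The part of GC content in the differences between genotypes was not tested.

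**Figure D5:**
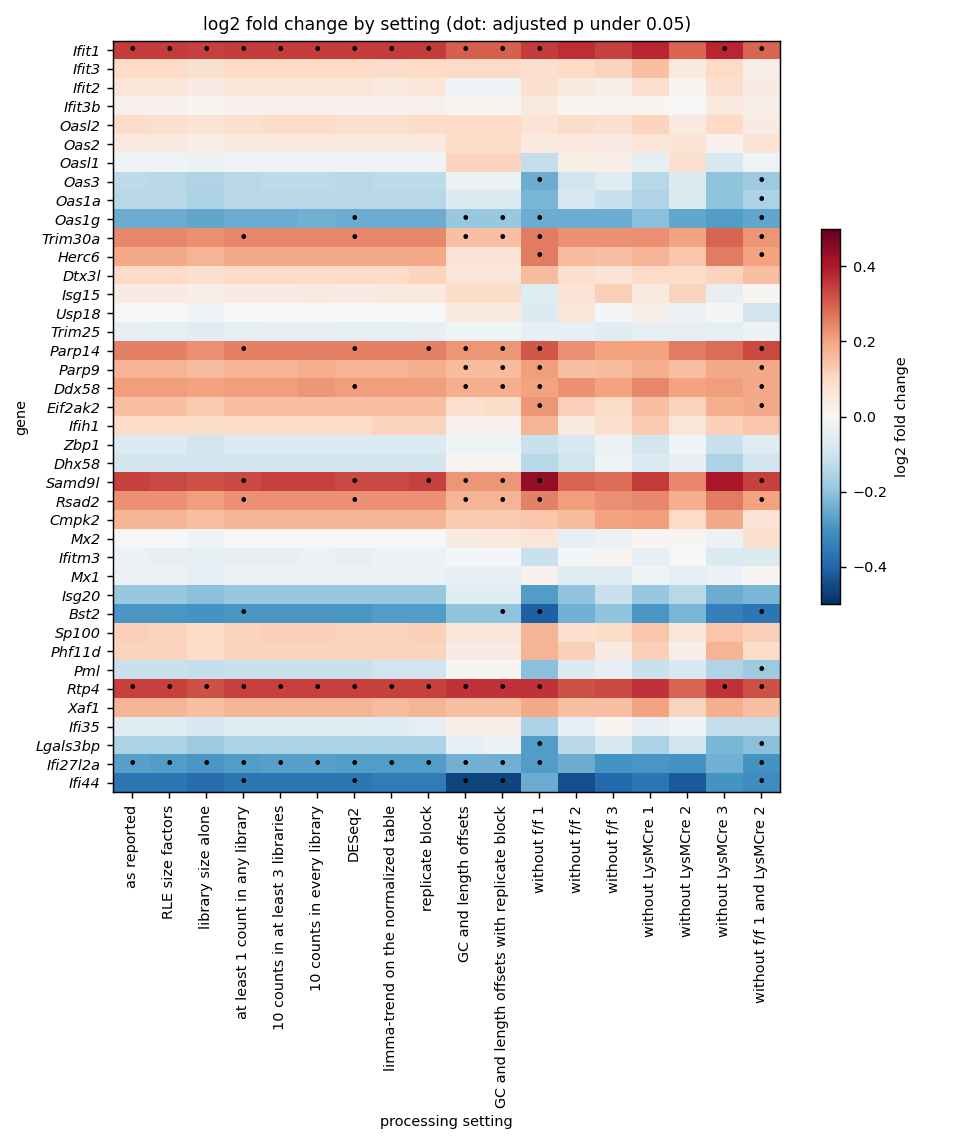
Log2 fold change of each of the 40 genes (rows, by role group) as reported and under each processing setting (columns), from blue (lower in Pdcd1f/fLysMCre) to red (higher), with a dot where the adjusted p was under 0.05. Ifit1, Rtp4 and Ifi27l2a keep their sign in every column, no gene has a dot in 4 of the 6 columns that leave out 1 library, and the column without 2 libraries was added after the data were seen.

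The signaling pathway of these genes was read from a list of 55 genes, of which 37 were tested. The list pools genes that drive the response with genes that attenuate it. The latter are 9 of the 37, of which none was called in edgeR and 4 had log2 fold changes above 0. No gene of the whole list was higher and 2 were lower, which is 5.41% of the 37, beside 5.43% of all genes. Log2 fold changes were above 0 for 13 of the 37 (35.1%), beside 49.6% of all genes. The 37 had a median GC content of 51.7%, beside 49.2% over all genes. Of all genes with a GC content of 50% or more, 31.6% were above 0. The part of GC content in the pathway values was not tested. In edgeR, 2 of the 37 were higher and 9 lower at an unadjusted p under 0.05, beside 12.3% of all genes higher and 11.9% lower. Under the alternative settings 0 to 3 were higher and 0 to 15 lower, the last of these without Pdcd1f/f replicate 1 and Pdcd1f/fLysMCre replicate 2, where 13.6% of all genes were lower. Of 18 ligand genes only Ifnb1 (interferon-beta) was tested, with 51, 43.6 and 28.5 normalized counts in Pdcd1f/f and 43.5, 32.4 and 40.3 in Pdcd1f/fLysMCre libraries. At this level its genotypes overlapped (log2 fold change -0.09, SE 0.28, adjusted p = 0.877 in edgeR). The receptor genes Ifnar1 and Ifnar2 had log2 fold changes of 0.05 and 0.03, and the kinases Jak1 and Tyk2 of 0.02 and -0.22, none past the threshold.

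Among the transcription factors of the pathway, Stat2 had 3824, 3981 and 4063 normalized counts in Pdcd1f/f and 3712, 3685 and 3789 in Pdcd1f/fLysMCre libraries. Its genotypes did not overlap, but the difference did not pass (log2 fold change -0.08, SE 0.06, adjusted p = 0.422 in edgeR). Irf9 had a log2 fold change of 0.07 (SE 0.06, adjusted p = 0.512 in edgeR) and overlapped. Irf7, the factor that amplifies interferon production, had -0.18 (SE 0.11, adjusted p = 0.312 in edgeR). Irf8, a factor of macrophage and dendritic cell identity, had 3818, 4412 and 4530 against 3368, 3384 and 3605 normalized counts, with no overlap and an adjusted p of 0.0519 in edgeR (log2 fold change -0.30, SE 0.08). Ptpn11, which encodes the phosphatase SHP-2, had a log2 fold change of 0.00 (SE 0.06).

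The 2 pathway genes that fell were Irf1 and Sting1. Irf1, a transcription factor induced by interferons and most strongly by interferon-gamma, had 2600, 2817 and 3064 normalized counts in Pdcd1f/f and 2172, 2002 and 2426 in Pdcd1f/fLysMCre libraries. Every Pdcd1f/fLysMCre value was below the controls (log2 fold change -0.36, SE 0.09, adjusted p = 0.0446 in edgeR). Sting1 (annotated as Tmem173), the adaptor of cytosolic DNA sensing, had 2987, 3678 and 3507 against 2598, 2495 and 2502 normalized counts. It also did not overlap (log2 fold change -0.42, SE 0.08, adjusted p = 0.0174 in edgeR). Both calls held in 2 of 6 fits with 1 library left out, those without Pdcd1f/f replicate 1 or Pdcd1f/fLysMCre replicate 3, with log2 fold changes of -0.44 to -0.30 for Irf1 and -0.51 to -0.35 for Sting1.

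The libraries held 41833823 to 51417209 counts each. Lyz2, the locus of the Cre, fell from a mean of 216864 to 427 normalized counts, and every library lay on the side its label gives. Lyz1, which lies beside it on chromosome 10, rose from 156 to 3625 (log2 fold change 4.54, adjusted p = 8.75e-09 in edgeR). The Pdcd1f/f libraries carry no Cre by their labels, so deletion of Pdcd1, presence of Cre and loss of Lyz2 expression cannot be told apart. Pdcd1 itself had 10, 12 and 15 counts in Pdcd1f/f and 7, 16 and 11 in Pdcd1f/fLysMCre libraries. These overlapped (log2 fold change -0.25, SE 0.45, adjusted p = 0.771 in edgeR). A count for the whole gene gives no view of the floxed exons alone. The summed level of 9 macrophage markers was 441900 to 474500 normalized counts in Pdcd1f/f and 362500 to 371900 in Pdcd1f/fLysMCre libraries, and 6 of the 9 were lower, beside 3.01% of all genes. Of those 6, Mertk alone was still called without Pdcd1f/f replicate 2 or without Pdcd1f/fLysMCre replicate 1. Summed markers of plasmacytoid dendritic cells, the classical source of type I interferon, were 36.2 to 62.4 and 44.8 to 52.1, and 4 of these 6 genes had at most 10 counts in each library. Markers of conventional dendritic cells summed to 104 to 142 and 197 to 198, with none of the 3 tested called. Neutrophil markers summed to 6580 to 6745 and 5494 to 5626, with 3 of the 6 tested above 0 and 3 below. Of these 6, Csf3r (log2 fold change -0.51) and Mmp8 (-0.48) were lower, beside 3.01% of all genes. Retnlg, with 17 to 47 counts per library, had -0.95 and did not pass (adjusted p = 0.11 in edgeR). S100a8 and S100a9 had log2 fold changes of 0.23 and 0.12, not past the threshold. The part of these shifts in the values of the interferon-stimulated genes was not tested.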

How the data were processed

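RNA was isolated from sorted TAMs, and polyA RNA was made into stranded libraries read as paired 42-base reads. The authors trimmed reads with cutadapt (2.5), aligned them to GRCm38 with STAR (2.7.3a) and counted them with featureCounts (Subread 1.6.2), and they deposited raw counts per Ensembl gene. The use of strand and of multi-mapped reads is not given in the sources used here. A second table deposited by the authors holds normalized signal for 16552 genes, in which each count is divided by 1 DESeq2 size factor per library. Values printed per library come from it.

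Genotype and replicate came from the labels, with 3 libraries each of Pdcd1f/f and Pdcd1f/fLysMCre. The raw counts were tested with edgeR (4.0.16, R 4.3.3): filterByExpr (minimum count 10, minimum total 15), TMM, robust glmQLFit, two-sided glmQLFTest and Benjamini-Hochberg adjustment over 14469 genes at 0.05. Tested on simulated data, this made 6 false calls among 14210 genes. The simulated counts were drawn gene by gene, without the drift of whole libraries with GC content. That number therefore does not carry over to the real libraries. Alternatives used DESeq2 (1.42.0), limma (3.58.1) on log2(value + 1), other scalings and filters, GC content and length offsets by loess (span 0.5), a replicate block and each library left out. Gene positions, GC content and overlaps came from GENCODE M21, which is on GRCm38, and promoter windows from RefSeq. Mean chi-square per gene between replicates was 5.42 to 43, so all 6 libraries were kept as separate samples.

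Members and lists were chosen with earlier results of these data known. The rule for named genes took Ifit1, Rsad2, every called member, the most abundant member of each role group per kb, called pathway genes and 11 fixed pathway genes, of which 1 is not reported here. Other members printed here were chosen after their values were seen. One symbol of a comparison list, Mnda, found no match and is not analysed here.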

Additional observations from a re-analysis of the deposited data

How the results depend on the processing

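Calls among the 40 genes depended on the processing, and the cause was not tested. The 2 higher and 1 lower genes were 2 and 1 with RLE size factors, library size alone, filters of 10 counts in at least 3 or in every library, and limma-trend. They were 6 and 3 with every gene that had a count (7.32% of all genes called, 3.32% higher and 4.01% lower). DESeq2 gave 7 and 3 (5.23% and 5.82% of all genes), and GC and length offsets gave 8 and 3 (11.2% and 7.76%). At a threshold of 0.01 they were 0 and 0. Leaving out 1 library gave 0 to 10 higher and 0 to 5 lower. These were 10 and 5 without Pdcd1f/f replicate 1 (21.6% of all genes, 10% higher and 11.5% lower). Without Pdcd1f/fLysMCre replicate 3 they were 2 and 0 (3.56%, 1.45% higher and 2.12% lower). They were 0 and 0 without each of the other 4 (Pdcd1f/f replicates 2 and 3, Pdcd1f/fLysMCre replicates 1 and 2), where 1.51% to 2.5% of all genes were called. Without Pdcd1f/f replicate 1 and Pdcd1f/fLysMCre replicate 2 together, chosen after seeing the data, 10 were higher and 8 lower (12.5% and 13.6% of all genes).

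The labels do not say whether the replicate numbers pair the libraries. Same-numbered deviations correlated at -0.01, -0.09 and 0.20, and differently numbered ones at -0.24 to 0.22. Because these deviations also followed GC content, they cannot decide whether the libraries are paired. With the replicate block 4 genes of the list were higher and 1 lower (7.1% of all genes called, 3.18% higher and 3.92% lower). With the block and GC and length offsets they were 8 and 4 (19.5%, 11.4% higher and 8.13% lower). Pathway genes called lower under the replicate block were 6 (3.92% of all genes), and 7 with the offsets added (8.13%), with 2 higher there (11.4%). Rsad2 had 0.17 in the block with offsets (adjusted p = 0.00855, edgeR).

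Ifit1 had log2 fold changes of 0.29 to 0.38 when 1 library was left out and adjusted p-values of 0.000175 to 0.0851 over all settings of edgeR, DESeq2 and limma. Rsad2 had 0.18 to 0.26 when 1 library was left out, and adjusted p-values of 0.00415 to 0.266 over all those settings. It passed with every gene that had a count and with DESeq2 (0.23 in both), with GC and length offsets (0.17), without Pdcd1f/f replicate 1 (0.25) and without both libraries (0.20). The median log2 fold change of the 40 was 0.03 with library size alone and without both libraries, beside -0.02 and -0.003 over all genes, and it was also 0.03 without Pdcd1f/f replicate 3 (0.03 to 0.06 with 1 library left out). Pathway genes called lower, with the share of all genes lower in that setting, were 5 with library size alone (3.45%), 8 with every gene that had a count (4.01%), 6 with DESeq2 (5.82%), 7 with GC and length offsets (7.76%), 0 at a threshold of 0.01, 0 to 11 with 1 library left out (11.5% where 11) and 15 without both (13.6%). Those called higher were 1 with the offsets (11.2% of all genes), 0 to 1 with 1 library left out and 3 without both (12.5%).

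Signs turned only for genes with a reported log2 fold change between -0.11 and 0.06. With GC and length offsets, without and with the block, Ifit2 had -0.02 and -0.02, Usp18 0.05 and 0.05, Oasl1 0.11 and 0.11, Mx2 0.04 and 0.05, Dhx58 0.01 and 0.01, Ifi35 0.03 and 0.03, Pml 0.01 and 0.01, and Ptpn11 0.03 and 0.03. Usp18 and Mx2 had 0.00 with the block, and Mx2 0.00 with limma. With 1 library left out, Isg15 ranged from -0.06 to 0.12, Usp18 from -0.07 to 0.06, Oasl1 from -0.12 to 0.08, Mx1 from -0.06 to 0.02, Mx2 from -0.04 to 0.06, Ifi35 from -0.16 to 0.01, Ifitm3 from -0.11 to 0.01, Ifnb1 from -0.29 to 0.10, Ifnar2 from -0.01 to 0.04, Jak1 from -0.02 to 0.04 and Ptpn11 from -0.03 to 0.01. Without both libraries Mx1 had 0.01, Mx2 0.08, Ifnb1 0.22, and Ifnar2 and Jak1 0.00.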

Other observations

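Genes that answer interferon-gamma as well as type I interferon were read from further lists. Of 14 interferon-inducible GTPase genes, which act against intracellular microbes, 1 was lower and none was higher at an adjusted p of 0.05 in edgeR. Over all genes, 3.01% were lower and 2.42% higher. At an unadjusted p under 0.05, 0 were higher and 2 lower in edgeR, beside 12.3% and 11.9% of all genes. The called gene was Iigp1, with 1034, 894 and 924 normalized counts in Pdcd1f/f and 731, 698 and 689 in Pdcd1f/fLysMCre libraries (log2 fold change -0.43, SE 0.09, adjusted p = 0.0179 in edgeR). That call held in 2 of 6 fits with 1 library left out, those without Pdcd1f/f replicate 1 or 3 (-0.47 to -0.37 over the 6). Of 7 tested genes of the interferon-gamma axis, 2 were higher and 3 lower at an unadjusted p under 0.05 in edgeR, beside 12.3% and 11.9% of all genes. At an adjusted p of 0.05, 2 were lower, beside 3.01% of all genes, and none was higher. Cxcl9, a chemokine that attracts T cells, had 2219, 2011 and 1927 against 1138, 1359 and 1160 normalized counts (log2 fold change -0.75, SE 0.09, adjusted p = 0.00122 in edgeR), and was called with each library left out. The receptor gene Ifngr1 was the other (log2 fold change -0.28, SE 0.06, adjusted p = 0.0254 in edgeR), called in 2 of 6 such fits, without Pdcd1f/f replicate 1 or Pdcd1f/fLysMCre replicate 2. The related chemokine gene Cxcl10, which type I interferon also induces, had 7485, 7487 and 7828 against 8496, 9271 and 8637 normalized counts, and did not pass (log2 fold change 0.21, SE 0.06, adjusted p = 0.0693 in edgeR). Cd274 (log2 fold change 0.22, SE 0.06, adjusted p = 0.0531 in edgeR) and Nos2 (-0.21, SE 0.09, adjusted p = 0.163 in edgeR) did not pass either.

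Of 12 genes of the Ifi200 family, nuclear and cytosolic proteins that bind DNA, 1 was higher and none lower in edgeR, beside 2.42% of all genes higher and 3.01% lower, with 2 higher and 0 lower at an unadjusted p under 0.05, beside 12.3% and 11.9% of all genes. Ifi205 had 3534, 3125 and 2979 normalized counts in Pdcd1f/f and 4301, 5450 and 4573 in Pdcd1f/fLysMCre libraries (log2 fold change 0.57, SE 0.10, adjusted p = 0.00801 in edgeR). Without Pdcd1f/f replicate 2 this missed the threshold (adjusted p = 0.0507 in edgeR), and it passed without each of the other 5 libraries. Ifi205 has a GC content of 36.1%, and the median of the 12 was 40.2%, beside 49.2% over all genes. The part of GC content in this difference was not tested. Genes of this family are close copies of one another, so the split of reads among them is uncertain.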
